A study of Mus musculus with 10 samples.

Results

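Described here are 10 genes of zinc handling in mouse liver, out of 54532 genes in the deposited table. They are 5 zinc importers of the ZIP family (Slc39a4, Slc39a5, Slc39a7, Slc39a8 and Slc39a14), 3 zinc exporters of the ZnT family (Slc30a1, Slc30a7 and Slc30a10) and 2 metallothioneins (Mt1 and Mt2). They were chosen by gene name as the family around Slc39a4, and Slc39a4 itself was selected on its p-value in the comparison of genotypes, where it ranked 4 of 13306 genes. Its genotype difference is therefore given without a test. Of the 10 genes, 9 passed the filter on low values (at least 10 reads in at least 5 livers), and Mt2 did not.

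Zinc leaves and enters the cytosol through these transporters: ZIP proteins carry it in, from outside the cell or from organelles, and ZnT proteins carry it out of the cytosol. Metallothioneins are small cysteine-rich proteins that bind zinc and copper. When free zinc rises, the transcription factor MTF-1 binds metal response elements in promoters such as those of Mt1, Mt2 and Slc30a1. In liver, Mt1, Mt2 and Slc39a14 are also known to respond to interleukin-6 during the acute phase response, and metallothioneins to glucocorticoids.

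RNA was sequenced from livers of 10 C57BL/6J mice, 5 ASK1f/f and 5 ASK1+hep, that were 6 weeks old when a HFD of 7 weeks began and were fasted for 5 h. Both groups carry a construct in the ROSA26 locus with the murine cDNA of the stress kinase ASK1 (gene Map3k5) behind a lox-stop-lox cassette. ASK1f/f controls are homozygous for it and carry no Cre. ASK1+hep mice also carry Alb-Cre, which is active in hepatocytes and removes the stop. The labels do not give the sex of the sequenced mice. Values are FPKM, fragments scaled to gene length and a library size, and each liver is a separate animal. The library size implied by the FPKM was 0.890 (ASK1+hep replicate 3) to 1.06 (ASK1f/f replicate 1) times the reads assigned to genes.

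Reads assigned to genes ranged from 14411830 to 16056102 in ASK1f/f livers and from 13367742 to 16163378 in ASK1+hep livers. Map3k5 was highest of all 10 in the library labelled ASK1f/f replicate 5 (19.8 FPKM), which goes against its label. The Fgf21 level of that library was 3.21 FPKM, within the ASK1f/f range of 2.46 to 4.74 FPKM and below every ASK1+hep liver (7.40 to 30.1 FPKM). ASK1+hep replicate 3, at 7.68 FPKM of Map3k5, lay close to the other controls (4.71 to 6.88 FPKM). The library labelled ASK1f/f replicate 5 and ASK1f/f replicate 2 also stood apart in acute phase genes, with Saa1 (serum amyloid A) at 904 and 1557 FPKM, against 14.8 to 116 FPKM in the other 8 livers. ASK1+hep replicate 3 had reads on the fewest genes, 18391. Of 10 hepatocyte markers, 9 were in the table, and they summed to 37983 to 62096 FPKM. The sum hides markers that moved in opposite directions in ASK1+hep replicate 3. There Cps1 was the lowest of all livers (94.9 FPKM, against 295 to 616 FPKM), while Fabp1 (16687 FPKM) and Ttr (8129 FPKM) were the highest. In bulk liver, fewer cells of a type and less RNA per cell cannot be told apart.

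Promoters of 8 of the 10 genes were found in the RefSeq table of GRCm38, and Slc39a4 and Slc39a14 were not. The cores TGCACNC and TGCGCNC of the metal response element were searched on both strands of the 250 bases before each start. The metallothionein promoters and those of Slc30a1 and Slc30a10 are shown because they held a match at the only start listed. Matches are in capitals, and overlapping matches run together.
Mt1 (chr8:94178839-94179088, plus strand): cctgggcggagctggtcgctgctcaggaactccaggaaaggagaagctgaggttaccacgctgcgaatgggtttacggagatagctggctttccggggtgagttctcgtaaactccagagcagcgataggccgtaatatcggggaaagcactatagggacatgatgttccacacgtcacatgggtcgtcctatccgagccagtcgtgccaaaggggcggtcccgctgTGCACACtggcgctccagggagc
Mt2 (chr8:94172368-94172617, plus strand): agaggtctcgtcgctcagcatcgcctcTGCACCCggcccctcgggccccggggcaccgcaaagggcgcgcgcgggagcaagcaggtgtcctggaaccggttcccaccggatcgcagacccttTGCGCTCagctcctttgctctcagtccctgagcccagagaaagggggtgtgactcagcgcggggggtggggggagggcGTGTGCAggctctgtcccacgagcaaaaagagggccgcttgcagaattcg
Slc30a1 (chr1:191906531-191906780, plus strand): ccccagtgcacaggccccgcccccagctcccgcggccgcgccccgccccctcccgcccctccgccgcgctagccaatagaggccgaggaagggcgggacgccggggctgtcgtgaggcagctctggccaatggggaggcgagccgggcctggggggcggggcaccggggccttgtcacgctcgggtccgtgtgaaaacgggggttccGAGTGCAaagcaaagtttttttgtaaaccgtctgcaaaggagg
Slc30a10 (chr1:185454598-185454847, plus strand): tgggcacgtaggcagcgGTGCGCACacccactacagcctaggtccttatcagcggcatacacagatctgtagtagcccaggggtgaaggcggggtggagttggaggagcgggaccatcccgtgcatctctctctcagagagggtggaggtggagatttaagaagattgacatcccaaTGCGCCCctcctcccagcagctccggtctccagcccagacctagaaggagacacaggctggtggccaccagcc

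Mt2 and Slc30a10 held 3 matches each, and in Slc30a10 the first pair overlap on opposite strands. Slc30a1 and Mt1 held 1 match each, at 43 to 37 and 23 to 17 bases before the start. Slc39a8 and Slc39a5 each held 1 match at 1 of 2 listed starts, and Slc30a7 and Slc39a7 held none. Of all 32851 promoters in the table, 21.4% held at least 1 match and 1.26% held 3 or more. Other Mt1 transcripts are annotated to start at 94179211 and 94179241, and the bases directly before those starts lie outside the sequence searched.

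Across all 10 livers, the median level per length followed the order Mt1 (58.1 FPKM), Slc39a14 (23.7), Slc30a1 (7.21), Slc30a10 (3.47), Slc39a4 (3.10), Slc39a8 (2.22), Slc30a7 (1.68), Slc39a7 (1.11), Slc39a5 (0.752) and Mt2 (0.0658). Each gene down to Slc30a1 was above the next in 10 of 10 livers, as was Slc39a8 above Slc30a7. Slc30a10 was above Slc39a4 in 6 of 10 livers, and Slc39a7 above Slc39a5 in 7 of 10, so these neighbours do not separate. Only between Slc39a14 and Slc30a1 did the ranges over livers not overlap. The places of Slc39a7 and Mt2 in this order are uncertain, as 80.7% and 73.5% of their exonic bases are shared with other genes.

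**Figure D1:**
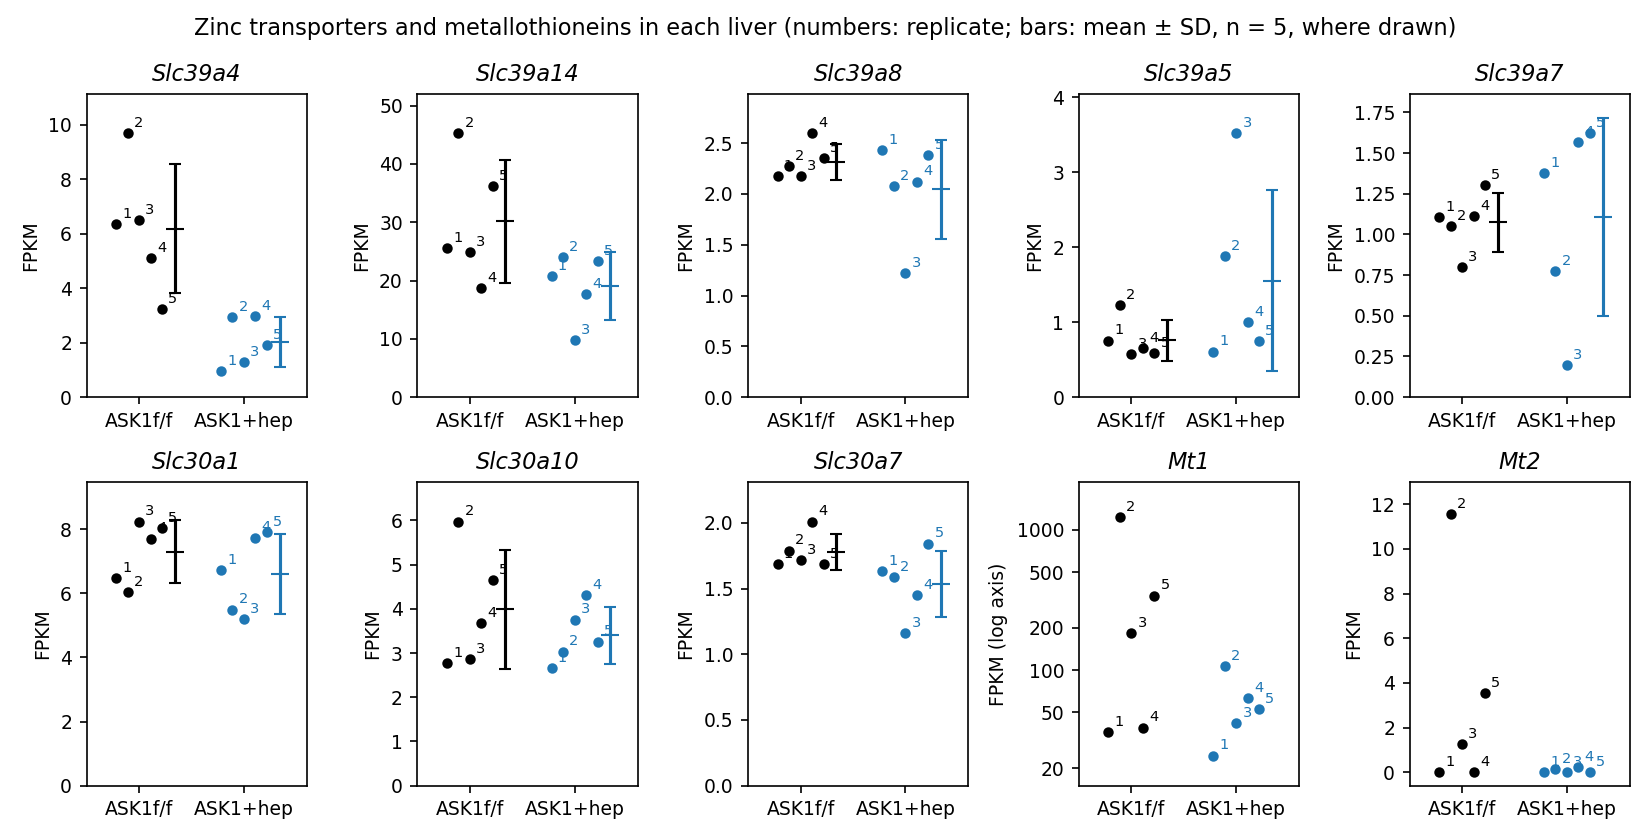
FPKM of the 10 genes in each liver of ASK1f/f (black) and ASK1+hep (blue) mice, 1 point per liver with its replicate number, a log axis for Mt1, and mean ± SD (n = 5) except for Mt1 and Mt2. The groups do not overlap for Slc39a4, and ASK1f/f replicate 2 is the highest point for Slc39a4, Slc39a14, Slc30a10, Mt1 and Mt2.

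Slc39a4 encodes ZIP4, the importer known for uptake of dietary zinc in the small intestine. Its gene spans bases 76612383 to 76617384 of chromosome 15 (GRCm38, minus strand), and no other annotated gene shares its exons. In ASK1f/f livers it was at 6.36, 9.69, 6.50, 5.10 and 3.22 FPKM (replicates 1 to 5), and in ASK1+hep livers at 0.963, 2.94, 1.29, 2.99 and 1.92 FPKM. Every ASK1f/f liver was above every ASK1+hep liver, and the closest were the library labelled ASK1f/f replicate 5 (3.22) and ASK1+hep replicate 4 (2.99).

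The means of Slc39a4 were 6.17 ± 2.37 and 2.02 ± 0.928 FPKM (SD, n = 5 each), 3.06 times as high in ASK1f/f, and the log2 fold change was -1.24 on log2(FPKM + 1). Without ASK1f/f replicate 2 and the library labelled ASK1f/f replicate 5 it was -1.26, without the latter alone it was -1.42, and over all 20 other settings it ranged from -1.68 to -1.08. Reads on Slc39a4 numbered 51 to 474 per liver. Of all genes tested, 0.864% had groups that did not overlap, and 0.466% had all ASK1+hep livers lower. Of the other 8 genes that passed the filter, 0 did.

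Markers of small intestinal epithelium and pancreas, tissues known for ZIP4 or ZIP5, were examined beside these genes. Sis, Cdx1 and Cdx2 had no read in any liver, and the intestinal markers with most reads were Apoa4 and Fabp2, which hepatocytes also express. Lgals4, another intestinal marker that passed the filter, was at 6.93 to 32.8 FPKM (247 to 983 reads), highest in ASK1+hep replicate 2. The 9 pancreatic acinar markers summed to 0.317 to 0.745 FPKM in ASK1f/f livers, against 0.546 to 1.74 FPKM in ASK1+hep livers, and Amy2a5 was at 0. Of these 9 markers, 1 passed the filter, Cela2a, on 7 to 16 reads per liver. It was higher in every ASK1+hep liver than in any ASK1f/f liver, and groups did not overlap for 0.864% of all genes. The part of the intestinal and pancreatic markers in the levels of Slc39a4 was not tested.

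Around Slc39a4, 13 genes within 100 kb were tested, and 0 had an unadjusted p under 0.05 in limma. Their log2 fold changes ran from -0.09 (Gpt) to 0.24 (Adck5). Genes whose levels varied most like Slc39a4 across the 10 livers, with group means removed, were Snhg1 (r = 0.955), Fam222a (0.909), Acot1 (0.893), Smim1 (0.889) and Hexim1 (0.877). An r over 0.8 was reached by 31 genes, 0.233% of those tested, and all points share their libraries. The named genes were picked as the highest r of all genes tested, so no relation to Slc39a4 is drawn from them.

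Across all 13306 genes, limma called 0.0% at an adjusted p of 0.05, and 768 genes (5.77%) had an unadjusted p under 0.05. On the recovered reads limma-voom also called 0 genes, and with quality weights it called 1, Fgf21. Among the 9 zinc genes that passed the filter, 2 had an unadjusted p under 0.05, Slc39a4, by which the set was chosen, and Slc39a14. Log2 fold changes were negative for 8 of the 9, against 52.0% of all genes, and their median was -0.14, against -0.01 for all genes. Both values include Slc39a4, so neither is read as a result about the set. The 8 also include Slc39a7, at -0.03, whose sign was the same in 13 of 19 other settings. For the 8 other than Slc39a4, adjusted p from limma ranged from 0.812 to 0.976.

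**Figure D2:**
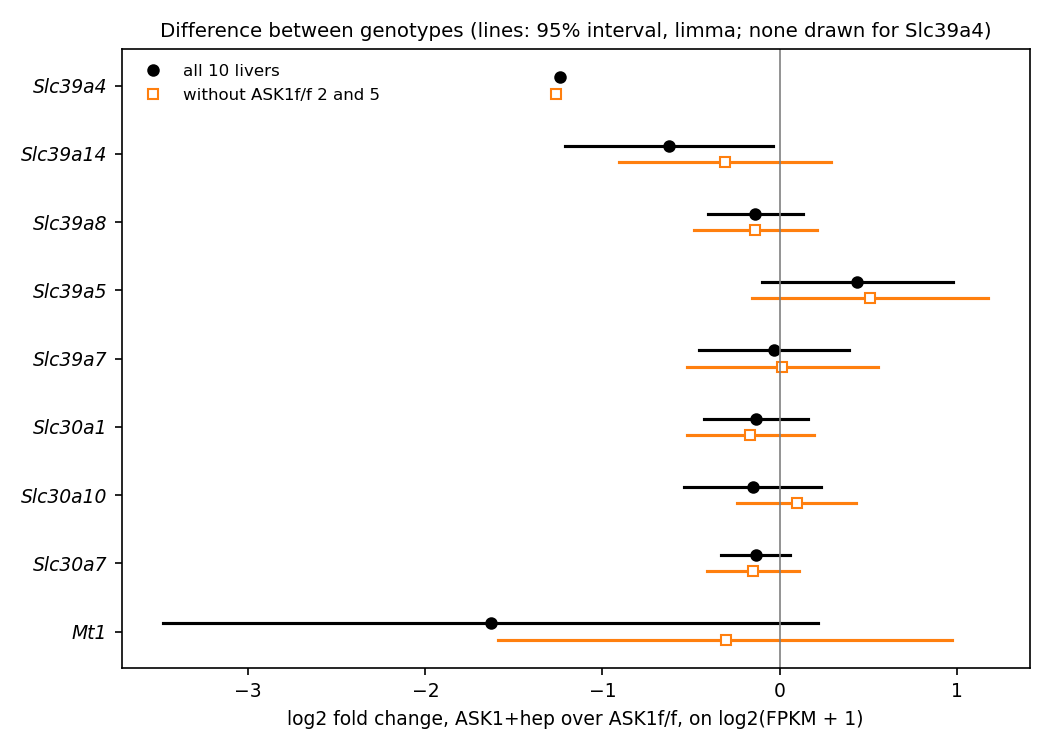
Log2 fold change of ASK1+hep over ASK1f/f on log2(FPKM + 1) for the 9 genes past the filter, from all 10 livers (black) and without ASK1f/f replicate 2 and the library labelled ASK1f/f replicate 5 (orange), with 95% intervals from limma except for Slc39a4. Slc39a14 moves from -0.63 to -0.31 and Mt1 from -1.63 to -0.30 when both livers are left out.

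Slc39a14 encodes ZIP14, an importer of zinc, manganese and iron at the hepatocyte surface. Its gene spans bases 70303469 to 70351425 of chromosome 14 (minus strand). Its levels were 25.5, 45.3, 24.9, 18.7 and 36.2 FPKM in ASK1f/f livers, against 20.8, 24.1, 9.73, 17.7 and 23.4 FPKM in ASK1+hep livers. The groups overlapped. ASK1f/f replicate 2 and the library labelled ASK1f/f replicate 5 were the highest, and ASK1+hep replicate 3 was the lowest.

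Means of Slc39a14 were 30.1 ± 10.5 FPKM in ASK1f/f livers, against 19.1 ± 5.83 FPKM in ASK1+hep livers (SD, n = 5 each). The log2 fold change was -0.63 (standard error 0.27, 95% interval -1.21 to -0.04), with an unadjusted p = 0.0388 and an adjusted p = 0.812 from limma. The exact two-sided permutation test over all 252 splits of the livers gave p = 0.0794. Slc39a14 thus did not pass the test over all genes. Without ASK1f/f replicate 2 and the library labelled ASK1f/f replicate 5, the log2 fold change was -0.31 (-0.91 to 0.29), and without ASK1+hep replicate 3 alone it was -0.41.

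Slc39a8 encodes ZIP8, an importer of zinc and manganese related to ZIP14. It was at 2.17, 2.27, 2.17, 2.60 and 2.35 FPKM in ASK1f/f livers, against 2.43, 2.08, 1.22, 2.12 and 2.38 FPKM in ASK1+hep livers. The groups overlapped, and only ASK1+hep replicate 3 lay below 2 FPKM. Its log2 fold change was -0.14 (-0.40 to 0.13, adjusted p = 0.821 from limma), and -0.02 without ASK1+hep replicate 3 and the library labelled ASK1f/f replicate 5.

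Slc39a5 encodes ZIP5, a zinc importer of the basolateral membrane in intestine and pancreas that is also made in liver. It was at 0.754, 1.23, 0.571, 0.650 and 0.584 FPKM in ASK1f/f livers, against 0.606, 1.88, 3.52, 1.00 and 0.750 FPKM in ASK1+hep livers. It was the only 1 of the 9 genes with a higher mean log2 level in ASK1+hep livers, by 0.44 (-0.10 to 0.98, adjusted p = 0.812 from limma, exact permutation p = 0.190). Without ASK1+hep replicate 3 this difference was 0.20. The highest values, in ASK1+hep replicates 2 and 3, stood in the libraries where the pancreatic markers also summed highest, to 1.74 and 1.30 FPKM. The part of those markers in Slc39a5 was not tested. Between 19 and 108 reads per liver fell on Slc39a5.

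Slc39a7 encodes ZIP7, which releases zinc from the endoplasmic reticulum. It was at 1.11, 1.05, 0.799, 1.11 and 1.30 FPKM in ASK1f/f livers, against 1.38, 0.775, 0.196, 1.57 and 1.62 FPKM in ASK1+hep livers. The log2 fold change was -0.03 (-0.45 to 0.39). ASK1+hep replicate 3 had 7 reads, the lowest of 7 to 61. Of the 2584 exonic bases of Slc39a7, 2084 (80.7%) are shared with the gene model Gm20427 on the same strand. Gm20427 had 0 to 9 reads per liver, so the level of Slc39a7 is uncertain.

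Slc30a1 encodes ZnT1, the zinc exporter of the plasma membrane. It was at 6.48, 6.03, 8.24, 7.71 and 8.04 FPKM in ASK1f/f livers, against 6.72, 5.49, 5.19, 7.74 and 7.90 FPKM in ASK1+hep livers, the narrowest range of the 9 genes (1.59-fold). The groups overlapped, and the log2 fold change was -0.13 (-0.43 to 0.16, adjusted p = 0.841 from limma). Slc30a7 encodes ZnT7, which loads zinc into the Golgi apparatus. It ranged from 1.68 to 2.01 FPKM in ASK1f/f livers, against from 1.16 to 1.84 FPKM in ASK1+hep livers. The log2 fold change of Slc30a7 was -0.14 (-0.33 to 0.06, adjusted p = 0.812 from limma, exact permutation p = 0.0952).

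Slc30a10 encodes ZnT10, best known as an exporter of manganese in liver and intestine. It was at 2.77, 5.97, 2.86, 3.68 and 4.64 FPKM in ASK1f/f livers, against 2.66, 3.03, 3.76, 4.30 and 3.26 FPKM in ASK1+hep livers. Its highest values were in ASK1f/f replicate 2 and the library labelled ASK1f/f replicate 5. The log2 fold change was -0.15 (-0.54 to 0.23, adjusted p = 0.855 from limma), and it turned to 0.10 without these libraries. Of the exonic bases of Slc30a1, Slc30a7 and Slc30a10, 8.92%, 16.0% and 9.13% are shared with other genes, on the opposite strand.

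Mt1 spans bases 94179082 to 94180327 of chromosome 8 (plus strand). It was at 36.2, 1233, 185, 39.0 and 341 FPKM in ASK1f/f livers, against 24.6, 107, 41.6, 63.5 and 52.7 FPKM in ASK1+hep livers. ASK1f/f replicate 2 was far above the rest, then came the library labelled ASK1f/f replicate 5 and ASK1f/f replicate 3. ASK1f/f replicates 1 and 4 lay within the range of the ASK1+hep livers.

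The 50.2-fold range of Mt1 over livers (522 to 24197 reads) was wider than that of 99.9% of the tested genes with reads in every liver. Its standard deviation within genotypes, 1.61 on log2(FPKM + 1), was above that of 99.9% of genes. Means were 367 ± 500 and 57.9 ± 31.0 FPKM (SD, n = 5 each), with medians of 185 and 52.7 FPKM. The log2 fold change of -1.63 had a standard error of 0.85 (95% interval -3.48 to 0.22), an adjusted p = 0.812 from limma and an exact permutation p = 0.159. Without ASK1f/f replicate 2 and the library labelled ASK1f/f replicate 5 it was -0.30 (-1.59 to 0.98), and without ASK1f/f replicate 2 alone it was -0.90. The gene length behind the FPKM was 1246 bases, the whole span of Mt1, while its 3-exon transcript has 549 bases.

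Mt2 lies 5513 bases before Mt1 on the same strand of chromosome 8, from 94172664 to 94173568. In ASK1f/f livers it had 0, 107, 11, 0 and 32 reads, and in ASK1+hep livers 0, 1, 0, 2 and 0 reads. Summed over 5 livers these were 150 and 3 reads, and 7 of 10 livers had 3 reads or fewer. The reads of Mt2 thus came almost wholly from 3 ASK1f/f livers, the same that were highest for Mt1. No fold is given at this depth, and the exact two-sided permutation test on log2(FPKM + 1) gave p = 0.167.

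Of the 588 exonic bases of Mt2, 432 (73.5%) are shared with Gm45774, a gene on the opposite strand. Gm45774 had 1, 106, 25, 0 and 20 reads in ASK1f/f and 2, 17, 0, 1 and 3 reads in ASK1+hep livers, highest in ASK1f/f replicate 2 as Mt2 was. How reads on shared bases and strands were counted is not given in the sources used here, so reads of Mt2 and Gm45774 cannot be told apart, and the low level of Mt2 is uncertain.

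**Figure D3:**
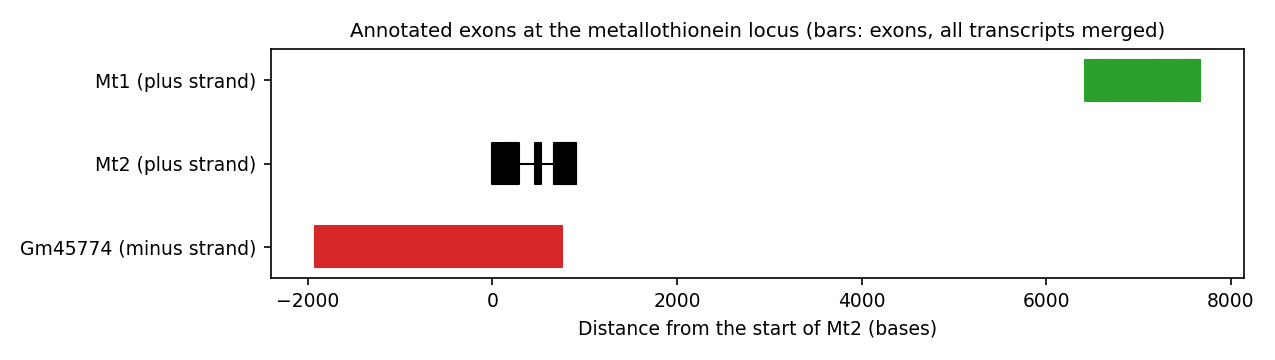
Annotated exons (bars) of Mt2, Mt1 and Gm45774 by distance in bases from the start of Mt2. Gm45774 covers 432 of the 588 exonic bases of Mt2 on the opposite strand, and no annotated gene shares bases with Mt1.

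Levels of the metallothioneins were set against each other and against related genes over 9 pairs, with permutation p adjusted by Benjamini-Hochberg. Mt1 and Mt2 had the highest values of the 9 pairs (Pearson r = 0.96, adjusted p = 0.00126; Spearman rho = 0.925, adjusted p = 0.00342; permutation tests, n = 10 livers). The r was 0.949 with group means removed and 0.844 without ASK1f/f replicate 2 and the library labelled ASK1f/f replicate 5. With 3 reads or fewer of Mt2 in 7 livers, all Mt2 correlations rested on the other 3 livers, and the 0.844 on 1 liver with 11 reads, so no relation of Mt2 is drawn from these tests. Mt1 and Slc30a1, both known targets of MTF-1, had r = 0.02 and rho = 0.236 (adjusted permutation p = 0.949 and 0.577). For Mt2 and Slc30a1, r was 0.04 and rho 0.278 (adjusted permutation p = 0.949 and 0.561), and neither passed the test. Without ASK1f/f replicate 2 and the library labelled ASK1f/f replicate 5, r was 0.21 and 0.436.

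Mt1 followed the mean log2 level of 26 acute phase genes, proteins that hepatocytes make in inflammation (r = 0.908, adjusted permutation p = 0.00409; rho = 0.77, adjusted permutation p = 0.0549). With group means removed r was 0.887, and without ASK1f/f replicate 2 and the library labelled ASK1f/f replicate 5 it was 0.56. Slc39a14 followed the same mean (r = 0.803, adjusted permutation p = 0.0114; rho = 0.515, adjusted permutation p = 0.198), with r = 0.755 when group means were removed. Leaving out ASK1+hep replicate 3 and ASK1f/f replicate 2 gave r = 0.633, and leaving out ASK1f/f replicate 2 and the library labelled ASK1f/f replicate 5 gave r = 0.453. Neither rank correlation passed the adjustment.

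**Figure D4:**
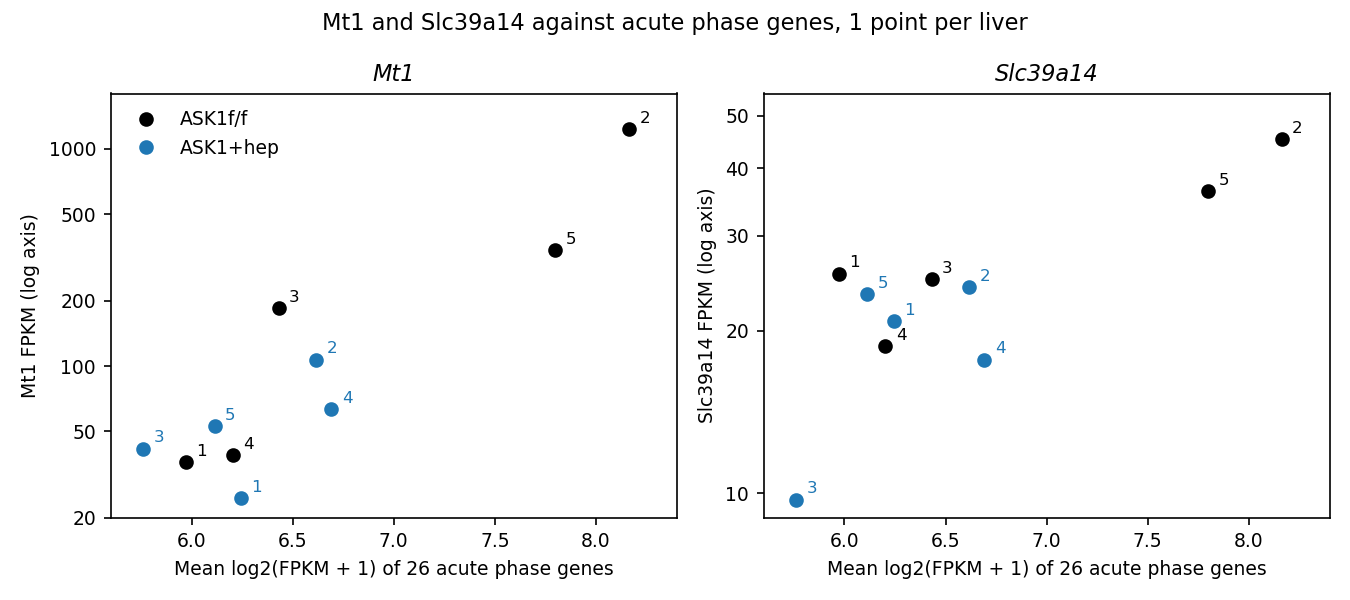
Mt1 (left) and Slc39a14 (right) in FPKM on log axes against the mean log2(FPKM + 1) of 26 acute phase genes, 1 point per liver with its replicate number. ASK1f/f replicate 2 and the library labelled ASK1f/f replicate 5 lie apart at the upper right, at 8.16 and 7.80 on the horizontal axis, and the other 8 livers lie between 5.76 and 6.69.

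Mt1 and Slc39a14 had r = 0.755 (adjusted permutation p = 0.0235; rho = 0.564, adjusted permutation p = 0.174), and Mt2 and Slc39a14 had r = 0.766 (adjusted permutation p = 0.0235; rho = 0.614, adjusted permutation p = 0.174). Without ASK1f/f replicate 2 and the library labelled ASK1f/f replicate 5, these were 0.319 and 0.298, so both relations rested on those livers. With group means removed they were 0.661 and 0.657. Mt1 and the mean of 13 glucocorticoid-induced genes behaved likewise, with r = 0.709 (adjusted permutation p = 0.03) and rho = 0.564 (adjusted permutation p = 0.174). This r was 0.666 with group means removed and 0.238 without those livers. The 13 genes include Lcn2, at 124 and 45.3 FPKM in those livers, against 1.05 to 4.10 FPKM in the others. The part of Lcn2 in this r was not tested. Slc39a14 and Slc30a10, which carry manganese in opposite directions, had r = 0.381 (adjusted permutation p = 0.354; rho = 0.115, adjusted permutation p = 0.757), 0.287 with group means removed and 0.163 without ASK1+hep replicate 3 and ASK1f/f replicate 2.

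Within genotypes, several transporters moved together or in opposition, and ASK1+hep replicate 3 was the extreme liver for most of them. Slc39a5 ran against Slc39a7 (r = -0.879), Slc39a8 (-0.871) and Slc30a1 (-0.818), and Slc39a8 ran with Slc30a7 (0.899) and Slc39a7 (0.886). ASK1+hep replicate 3 held the lowest value of 5 of the 9 genes (Slc39a7, Slc39a8, Slc39a14, Slc30a1 and Slc30a7) and the highest of Slc39a5. Without it, the same values were -0.617, -0.553, -0.783, 0.767 and 0.488 over 9 livers. Mt1 and Slc30a10 had r = 0.709, and 0.733 without that liver, but 0.02 without ASK1f/f replicate 2 and the library labelled ASK1f/f replicate 5, so this value rested on those livers.

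**Figure D5:**
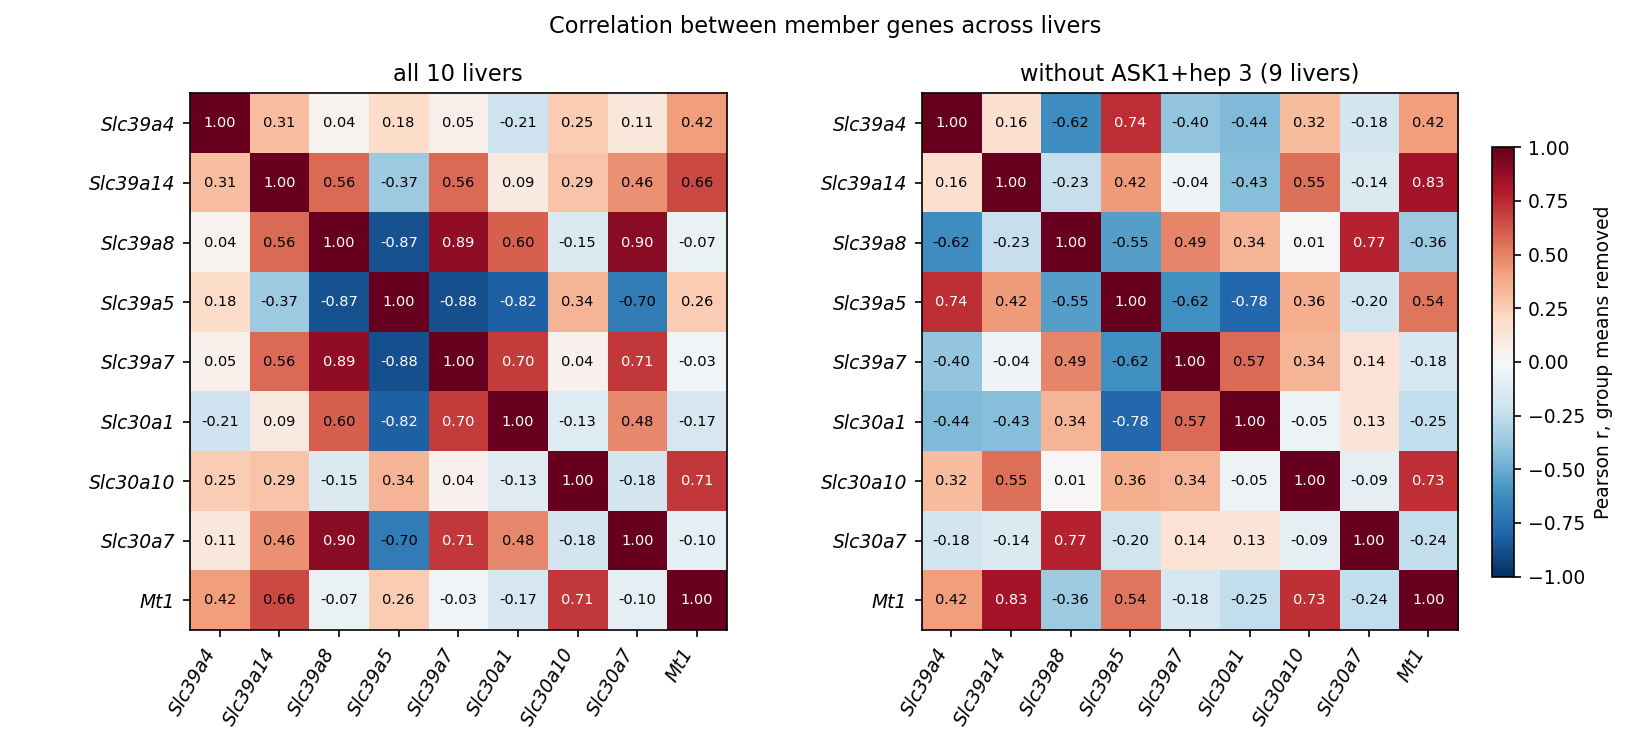
Pearson r between the 9 genes past the filter, on log2(FPKM + 1) with group means removed, over all 10 livers (left) and over 9 livers without ASK1+hep replicate 3 (right), from -1 (blue) to 1 (red). The block of high values between Slc39a8, Slc39a7 and Slc30a7 is paler without that liver.

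Genes most like Mt1 by the same measure over the 10 livers were Foxred1 (r = 0.944), Gde1 (0.938), Plpp5 (0.931), Etv6 (0.919) and Hspb8 (0.917), and 105 genes (0.789%) had an r over 0.8. These named genes were likewise picked as the highest of all tested, so no relation to Mt1 is drawn from them. Hspb8, a small heat shock protein, ranged from 72.8 to 191 FPKM over the livers.

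The rest of the zinc system was described for comparison. Of 9 other ZIP genes 8 were tested, of 7 other ZnT genes 5, and of 6 further genes of the metallothionein and MTF-1 list 4. In each list 0 had an unadjusted p under 0.05 in limma, against 5.77% of all genes, and the median log2 fold changes were -0.01, 0.03 and -0.05. Slc39a1, an importer of the plasma membrane, had the highest level of these transporters, 22.2 to 45.5 FPKM, with a log2 fold change of -0.23 (-0.56 to 0.09). Mtf1 itself was at 1.82 ± 0.0841 and 1.64 ± 0.382 FPKM (SD, n = 5 each; log2 fold change -0.11, -0.34 to 0.13). Mt3 and Mt4, known from brain and stratified epithelia, had no read in any liver.

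Of 18 zinc-dependent enzymes, 3 had an unadjusted p under 0.05 in limma, all lower in ASK1+hep livers, where 2.72% of all genes were lower at that p. They were Pm20d1, a secreted peptidase at 15.6 ± 1.09 and 10.8 ± 1.81 FPKM whose groups did not overlap, Bhmt, which methylates homocysteine (680.2 ± 187 and 438 ± 154 FPKM), and Adh5, the class III alcohol dehydrogenase (71.3 ± 6.94 and 59.3 ± 4.95 FPKM; SD, n = 5 each). Groups did not overlap for 0.864% of all genes, and Pm20d1 was named for its low p. The median over the 18 was -0.04. The adjusted p of each was 0.712 or above in limma, and the count ranged from 1 (without ASK1f/f replicate 2, 3 or 4, or ASK1+hep replicate 2) to 5 (without the library labelled ASK1f/f replicate 5) when single livers were left out.

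Among 10 copper genes and among 7 manganese genes, 1 each had an unadjusted p under 0.05 in limma, against 5.77% of all genes. The copper gene was Atp7b, the copper ATPase of bile excretion, at 4.39 ± 0.852 and 2.98 ± 0.843 FPKM. The manganese gene was Tmem165, a Golgi manganese transporter, at 3.55 ± 0.349 and 2.55 ± 0.513 FPKM (SD, n = 5 each). Its groups did not overlap, as for 0.864% of all genes, and it was named for its low p. Both were lower in ASK1+hep livers, and neither passed over all genes (adjusted p at least 0.812 by limma). With single livers left out, the copper count ran from 0 (without ASK1f/f replicate 1 or 3) to 3 (without ASK1+hep replicate 5), and the manganese count was 2 without ASK1+hep replicate 5 and otherwise 1.

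The 26 acute phase genes had negative log2 fold changes in 25 cases, against 52.0% of all genes, with a median of -0.47. Of the 26, 3 were lower at an unadjusted p under 0.05 in limma (2.72% of all genes), and this count was 0 without ASK1f/f replicate 2 or without the library labelled ASK1f/f replicate 5, 1 without ASK1+hep replicate 2 or 3, and 7 without ASK1f/f replicate 1. Without ASK1f/f replicate 2 and the library labelled ASK1f/f replicate 5, the median was 0.08. Without those livers, the median of the 13 glucocorticoid-induced genes went from -0.35 to -0.01. Leaving out ASK1+hep replicate 4 alone moved it to 0.03, while the acute phase median stayed between -0.68 and -0.27 with any single liver left out. Mt1 and Slc39a14 differed less between genotypes without ASK1f/f replicate 2 and the library labelled ASK1f/f replicate 5. The part of the acute phase genes in these differences was not tested.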

How the data were processed

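The labels gave genotype and replicate number of 10 livers. Poly-A RNA was sequenced, and the authors cleaned reads, mapped them with Hisat2, counted them per gene with FeatureCounts and deposited FPKM values; build, annotation release and strand setting are not given in the sources used here. Of 54532 genes, 54495 were found in GENCODE M21 (GRCm38), 98.3% with the same coordinates. FPKM times length was a whole multiple of 1 step per library for 100% of values (within 0.05 reads), which gave reads, used for depth, limma-voom and the low-value filter (10 reads or more in 5 livers, after scaling to the median depth, and 15 in total). The main test was limma 3.58.1 (R 4.3.3) with a trend on log2(FPKM + 1), a scale that understates changes of low genes, with Benjamini-Hochberg adjustment over 13306 genes. Exact tests enumerated all splits, and correlations used 100000 permutations. The comparison was tested on simulated data. Promoters came from RefSeq. No libraries were duplicates, with a lowest chi-square per degree of freedom of 19.5. Genes and lists were chosen with earlier results of these data known; genes outside the set were named as the 3 lowest p of each list and the 5 most like Slc39a4 and Mt1. Alternatives covered filter, pseudocount, scaling, voom, covariates and left-out livers.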

Additional observations from a re-analysis of the deposited data

Results flagged for a closer look

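Within groups of 5 livers, 2 of the 20 groups examined for the 10 genes held a liver set apart by a gap above 0.71 of the group's range. That limit gives about 1 in 20 by chance for normally distributed values. The gaps were taken on FPKM without logs, so the chance rate for these values is not known. Mt1 in ASK1f/f replicate 2 was at 1233 FPKM, against 341 FPKM in the next liver, a gap of 0.745 of the range. Slc39a5 in the same liver was at 1.23 FPKM, on 43 reads, against 0.754 FPKM in the next, a gap of 0.721 of the range.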

How the results depend on the processing

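None of the 8 zinc genes tested passed an adjusted p of 0.05 in limma under any of the 20 settings (19 for Slc39a7, which the filter of 10 reads in every liver removed). Over all genes, 0 passed; 1 (Fgf21) did with limma-voom and quality weights and 3 (Mup18, Cyp2d41-ps and Asns) without ASK1+hep replicate 3 and the library labelled ASK1f/f replicate 5, a setting chosen after seeing the data, as was leaving out ASK1f/f replicates 2 and 5. Leaving out each liver gave 0 to 1 genes, and 557 to 1724 at an unadjusted p under 0.05 (1724 without ASK1+hep replicate 5, 1178 without ASK1+hep replicate 1), and no filter gave 1222, as more genes were tested. Scaling by all reads shifted the median of all genes to -0.05, and 31.4% of 862 genes at an unadjusted p under 0.05 were then higher, against 52.9% of 768. The sign of Slc39a7 turned with quality weights (0.13), on leaving out ASK1f/f replicates 2 and 5 (0.016), and on leaving out ASK1+hep 3 with ASK1f/f 5 (0.20), and over single livers left out it ranged from -0.13 to 0.16. Slc30a10 turned to 0.10 without ASK1f/f replicates 2 and 5. Correlations near 0 also turned: Mt1 and Slc30a1 to -0.17 and Mt2 and Slc30a1 to -0.18 with group means removed, and to -0.29 and -0.27 without ASK1+hep 3 and ASK1f/f 5 (-0.14 to 0.36 and -0.11 to 0.48 over single livers left out). Slc39a14 and Slc30a10 turned to -0.62 without ASK1f/f replicates 2 and 5 (-0.061 to 0.60 over single livers). The cause was not tested. Same-numbered livers had correlations of 0.0212 to 0.174 (mean 0.107), against a mean of -0.0275 for livers of different numbers. The value was over 0.1 in 2 of 5 pairs, and 6 of 10 livers were best with their own number. Among livers of different numbers, only ASK1f/f 3 with ASK1+hep 5 was over 0.1 (0.118). Animal tags differ by 1 in 4 of 5 pairs, and the labels name no litters. Whether the numbers mark pairs could not be told, and the main test was unpaired. The replicate block gave 0 and 880 genes, and for Slc39a14 (lower in ASK1+hep in 5 of 5 pairs) an unadjusted p = 0.00809 and adjusted p = 0.721, and for Mt1 (4 of 5) 0.0184, now under 0.05, and 0.727, from limma. The animal tag prefix, shared by replicate 1 of both groups, as a covariate gave 0 and 733 genes, with an adjusted p = 0.843 for Slc39a14 and for Mt1 from limma. Depth limits Mt2 (3 reads equal 0.299 to 0.395 FPKM), Slc39a5 and Slc39a7.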
